A study of Mus musculus with 21 samples.

Results

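The receptors for the cytokines interleukin-33 (IL-33), IL-1 and IL-18 and the antagonist of the IL-1 receptor were followed across T cells of the infarcted mouse heart and of lymphoid organs. The 7 genes were taken by symbol from a count table of 49510 genes: Il1rl1, Il1r1, Il1r2, Il1rap, Il1rn, Il18r1 and Il18rap. All 7 passed the filter on low counts that left 14996 genes for testing. The mice carried Foxp3-GFP, a transgenic fluorescent reporter of the transcription factor that defines regulatory T cells (Tregs), were 8 weeks old, and were sampled 7 days after myocardial infarction, in which heart muscle dies for lack of blood. The 21 libraries made 7 groups of 3. Tregs came from the heart, the spleen, a lymph node that does not drain the heart (NDLN) and the mediastinal lymph node (MLN), which does. Conventional T cells (Tconvs) came from the heart, the spleen and the NDLN. All 7 groups carried the reporter and the infarction, so no group without infarction is compared here. Cells passed through magnetic beads and then flow cytometry, and a SMARTer kit meant for very low input amplified their RNA. The labels do not give the surface gate of the Tconvs, and they do not say whether animals were pooled or whether replicates came from separate animals. The p-values therefore measure the spread between these libraries, which may be partly technical.

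Cytokines of this family act through pairs of receptor chains, a chain that binds the cytokine and a shared or partner chain that completes the signalling complex through the adaptor MyD88. Il1rl1 encodes ST2, the IL-33 receptor, known from Tregs of several tissues and from type 2 immune cells. Il1r1 encodes the signalling receptor of IL-1, Il1r2 a decoy receptor that binds IL-1 without signalling, and Il1rn a secreted antagonist that occupies the signalling receptor. Il1rap encodes the accessory chain shared by the IL-1 and IL-33 receptors. Il18r1 and Il18rap encode the binding and accessory chains of the IL-18 receptor, known from interferon-gamma-producing T cells and natural killer cells.

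Of the genes, 5 lie side by side on the plus strand of chromosome 1 (GRCm38, GENCODE M21, positions counted from 1). Il1r2 spans 40074079 to 40125231, Il1r1 40225080 to 40317257, Il1rl1 40429570 to 40465415, Il18r1 40465552 to 40500854 and Il18rap 40515362 to 40551705. Il1rl2, the IL-36 receptor gene, lies between Il1r1 and Il1rl1, at 40324610 to 40367562. Il1rap lies on chromosome 16, at 26581704 to 26730117, and Il1rn on chromosome 2, at 24336853 to 24351494, both on the plus strand. The values are sums over the exons of each gene, so membrane and soluble forms of ST2, of the decoy receptor and of the accessory chain cannot be told apart. Only 136 bases separate the end of Il1rl1 from the start of Il18r1. The NDLN Tconv libraries had 0 counts of Il1rl1 beside 268 to 1172 counts of Il18r1. The strand setting of the counting is not given in the sources used here. Gm16894, which lies antisense to Il1r2, held 1026 counts over all libraries against 44521 for Il1r2, and Gm20319, antisense to Il1rap, held 0.

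Il1rl1 has a pair of start sites in RefSeq (GRCm38.p6), and the counts do not separate them. The 250 bases before each are shown because Il1rl1 was among the genes that passed the test between Tregs and Tconvs. The upstream start is preceded by chr1:40429320-40429569 and the downstream start by chr1:40439379-40439628, both on the plus strand and 5′ to 3′. Capitals mark matches to AGATAA or TGATAA, letters bound by GATA factors, on either strand.

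Il1rl1 upstream start: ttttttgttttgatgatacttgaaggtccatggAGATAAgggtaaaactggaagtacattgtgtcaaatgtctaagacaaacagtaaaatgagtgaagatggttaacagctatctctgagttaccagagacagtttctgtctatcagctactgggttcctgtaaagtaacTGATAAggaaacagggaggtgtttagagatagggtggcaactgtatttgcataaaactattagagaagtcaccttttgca
Il1rl1 downstream start: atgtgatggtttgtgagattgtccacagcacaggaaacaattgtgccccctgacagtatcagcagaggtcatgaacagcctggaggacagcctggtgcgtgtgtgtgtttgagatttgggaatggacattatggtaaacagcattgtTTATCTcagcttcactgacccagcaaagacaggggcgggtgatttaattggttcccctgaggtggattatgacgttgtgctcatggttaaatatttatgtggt

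The upstream window held 2 matches and the downstream window 1. Of 13 such windows for the 7 genes, 4 held a match, the others belonging to Il1r2 and Il18rap. Of 32851 RefSeq windows of this length, 16.6% held it. TGANTCA, the letters of AP-1 sites, occurred in 1 of the 13 windows, that of an Il1rn start, against 6.75% of all windows. These matches describe letters and do not show binding.

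Library totals ran from 14515387 to 28323649 counts. Replicates differed widely: the biological coefficient of variation of the fit was 1.48, and single libraries of a group often lacked a gene that the others held. Foxp3 ran from 39.5 to 248 CPM (counts scaled to the depth of each library) in the 12 Treg libraries and from 0 to 0.164 in the 9 Tconv libraries, and summed T cell markers stood at 4428 to 6750 CPM as group means. In 5 libraries (heart Tregs 1, heart Tconvs 1 and 2, MLN Tregs 1 and 2) mitochondrial ribosomal RNA made up 0.0567% to 0.102% of counts, against 0.954% to 12.3% in the other 16. The spleen and NDLN groups had no library of the first kind, so this split runs partly with tissue. CPM here are scaled with TMM factors, which adjust for the makeup of each library.

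**Figure D1:**
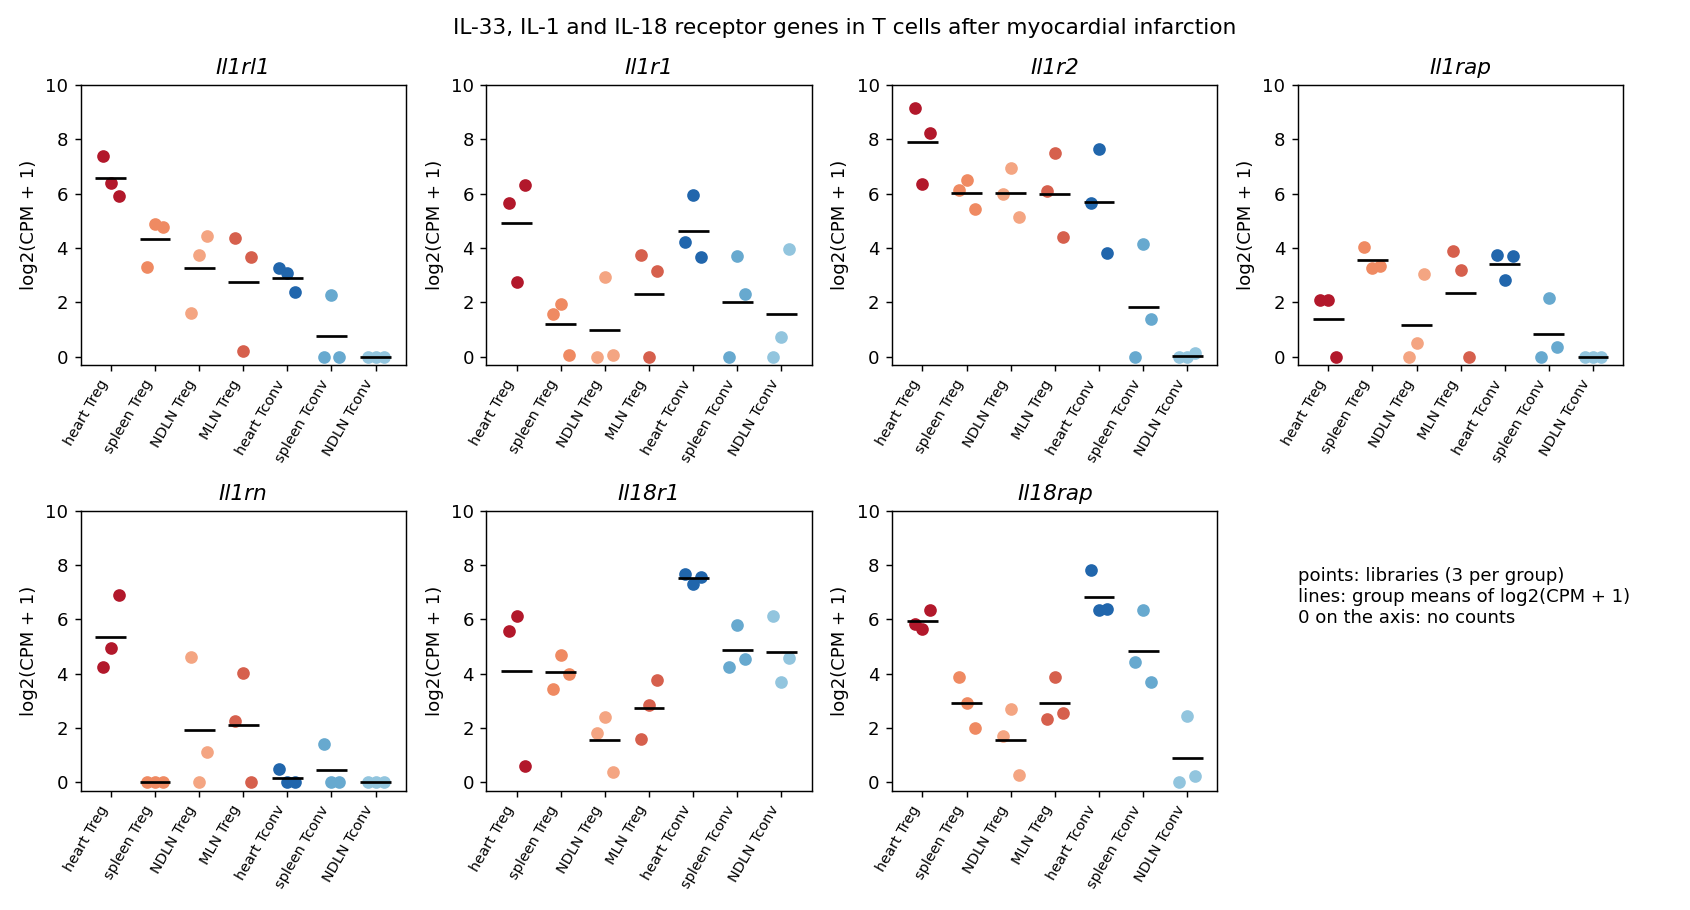
Level of each of the 7 genes as log2(CPM + 1) in every library (points, 3 per group) with the group mean of these values (line). Il1rl1 is high in the 3 heart Treg libraries and at 0 in the 3 NDLN Tconv libraries, while Il18r1 is highest in the 3 heart Tconv libraries.

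Il1rl1, the IL-33 receptor gene, was detected in all 12 Treg libraries and in 4 of the 9 Tconv libraries. Heart Tregs had 166, 81.9 and 59.8 CPM, spleen Tregs 8.88, 28.6 and 26.4, NDLN Tregs 2.05, 12.4 and 20.7, and MLN Tregs 19.6, 0.152 and 11.6. Heart Tconvs had 8.51, 7.38 and 4.15 CPM, spleen Tconvs 0, 3.81 and 0, and NDLN Tconvs 0 in each library. The heart Treg libraries lay above all 18 others, the lymphoid Treg groups overlapped each other, and the lowest MLN Treg library rested on 3 counts. Il1rl1 was higher in Tregs than in Tconvs on the mean over heart, spleen and NDLN (log2 difference at least 5.23, with NDLN Tconvs set at 3 counts over the group; adjusted p 0.012, edgeR). It passed the test in each of the 18 fits that left out 1 library, with adjusted p from 0.00077 to 0.039. With only the 16 libraries of higher mitochondrial ribosomal RNA, which leaves 1 heart Tconv library, its adjusted p was 0.35, while the fitted log2 difference was 6.39, against 6.34 in all libraries (fitted values against a group without counts).

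Within single tissues Il1rl1 did not pass the edgeR test of Tregs against Tconvs, although the libraries did not overlap. In heart its mean was 102 ± 55.8 CPM (SD, n = 3) in Tregs and 6.68 ± 2.26 in Tconvs, a log2 difference of 3.94 ± 1.83 (SE, adjusted p 0.6). In spleen the means were 21.3 ± 10.8 and 1.27 ± 2.2 CPM, a log2 difference of 4.05 ± 1.84 (adjusted p 0.62). In NDLN the mean was at least 205-fold higher in Tregs (adjusted p 0.11 with edgeR). This difference passed with DESeq2 (adjusted p 6e-06) and with edgeR without the filter on low counts (adjusted p 0.00023). Bounds written as at least, here and elsewhere, use the mean of the higher group and leave out the spread between its libraries. Among Tregs, the heart mean was 4.81 times that of spleen, 8.74 times that of NDLN and 9.83 times that of MLN. Against the mean of the 3 lymphoid Treg groups the log2 difference was 2.90 ± 1.20 (adjusted p 0.26), so this ordering did not pass the test. In a bulk library, more cells with the transcript and more transcript per cell cannot be told apart.

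Among Tconvs, Il1rl1 was at least 117-fold higher in heart than in NDLN (adjusted p 0.044), from 464 counts over the heart group and 0 over the NDLN group. This call was lost when any 1 of the 6 libraries was left out, with adjusted p from 0.052 to 0.12. It was also lost with the library set as a term in the fit (adjusted p 0.13) and with the replicate number as a block (adjusted p 0.061). Cells other than T cells can carry ST2, so their markers were summed as CPM without TMM factors. In heart Tregs the 6 mast cell markers summed to 0 to 1.64 CPM, with Mcpt4, Cma1, Tpsb2 and Ms4a2 at 0, and all 4 basophil markers were at 0. In heart Tconvs the mast cell markers summed to 0.313 to 8.28 CPM, with Mcpt4 and Ms4a2 at 0, and the basophil markers to 0 to 8.13, with only Cd200r3 detected. In NDLN Tconvs the mast cell markers summed to 5.04 to 31.3 CPM, with Mcpt4, Cma1, Tpsb2 and Ms4a2 at 0. The basophil markers summed there to 0 to 18.9 CPM, with only Cd200r3 detected. The 5 markers of type 2 innate lymphoid cells (ILC2) summed to 7.68 to 30.4 CPM in heart Tregs. There 4 were detected, Il13 among them, and Il5 was at 0. In heart Tconvs only Il13 was at 0, and in every lymphoid group both Il5 and Il13 were. The ILC2 markers summed to 7.54 to 43.1 in MLN Tregs, 9.39 to 22.1 in heart Tconvs and 0 to 4.49 in NDLN Tconvs. The part of such cells in the Il1rl1 level was not tested.

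Il1r2, the decoy receptor gene, had the highest mean of the 7 genes per kilobase of exon in 5 of the 7 groups. Heart Tregs had 565, 80.3 and 303 CPM, spleen Tregs 68.4, 88.5 and 41.9, NDLN Tregs 62.6, 121 and 34.2, and MLN Tregs 67.5, 178 and 20.4. Heart Tconvs had 49.5, 197 and 13.1 CPM, spleen Tconvs 0, 16.8 and 1.61, and NDLN Tconvs 0, 0 and 0.0863, the last from 1 count. All 12 Treg libraries thus held it at 20.4 CPM or more, a level that 2 of the 9 Tconv libraries reached, both of heart. Il1r2 was higher in Tregs on the mean over the 3 tissues (log2 difference 5.58 ± 0.92, adjusted p 0.0024), and the call held in each of 18 fits without 1 library (log2 difference from 5.34 to 6.56, adjusted p from 0.00038 to 0.015). With the 16 libraries alone the log2 difference was 6.23 with an adjusted p of 0.09.

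By tissue, the Il1r2 difference between Tregs and Tconvs passed the test in NDLN, where Tregs stood 3532-fold above Tconvs by depth-scaled counts (95% counting interval from 634 to 139534), with an adjusted p of 0.02. That call was lost without NDLN Tconv replicate 1 (adjusted p 0.11) or replicate 2 (adjusted p 0.1), and with the 16 libraries alone (adjusted p 0.055). The interval covers counting error only. In spleen the log2 difference was 3.43 ± 1.36 (adjusted p 0.62) with no overlap of libraries, and in heart 1.87 ± 1.27 (adjusted p 0.73) with overlap. The heart value of this contrast minus the mean of its spleen and NDLN values was -5.56 ± 1.75 on the log2 scale, which did not pass (adjusted p 0.49). In Il1r2 heart Tconvs stood 4693-fold above NDLN Tconvs (counting interval from 842 to 185411), with an adjusted p of 0.0069, and all 6 fits without 1 library kept the call (adjusted p from 0.006 to 0.032). This call also held with the library set as a term (adjusted p 0.027), but not with the 16 libraries alone (adjusted p 0.1). Against spleen Tconvs the heart value was 14.1 times as high (log2 difference 3.82 ± 1.38, adjusted p 0.25).

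Neutrophils are a known source of Il1r2 and Il1rn. Their 7 markers summed to 0.0353 to 31 CPM in heart Tregs, with S100a9, Ly6g, Cxcr2 and Retnlg at 0, and to 0.0894 to 16.3 in heart Tconvs, with Csf3r, Ly6g, Cxcr2 and Retnlg at 0. By mean the sum was highest in spleen Tregs, at 9.23 to 153 CPM, with Ly6g and Retnlg at 0. The 8 macrophage and monocyte markers summed to 0.0746 to 50.8 CPM in heart Tregs, with Adgre1, Csf1r, C1qa and C1qb at 0. In heart Tconvs they summed to 0.447 to 164, with Csf1r and Itgam at 0, and in spleen Tregs to 15 to 32.8. The part of these cells in the levels of Il1r2 and Il1rn was not tested.

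Il1r1, the signalling IL-1 receptor gene, was high in single libraries of both heart groups. Heart Tregs had 49.6, 5.69 and 78.4 CPM and heart Tconvs 17.7, 60.2 and 11.7. Spleen Tregs had 2, 2.88 and 0.0417, NDLN Tregs 0, 6.67 and 0.04, MLN Tregs 12.4, 0 and 7.89, spleen Tconvs 0, 12 and 3.97, and NDLN Tconvs 0, 0.668 and 14.4. The heart groups overlapped each other. Among Tregs the heart libraries lay above those of spleen and overlapped those of NDLN and MLN, and among Tconvs the heart libraries overlapped those of spleen and NDLN. Il1r1 passed no test. Heart Tregs against the mean of lymphoid Tregs gave a log2 difference of 3.93 ± 1.72 (adjusted p 0.28), and heart Tregs against heart Tconvs 0.58 ± 2.31 (adjusted p 1). Fibroblasts also carry Il1r1. Their 7 markers summed to 102 to 401 CPM in heart Tregs and to 1.44 to 182 in heart Tconvs, against at most 5.18 in any lymphoid library. In heart Tregs 6 of the 7 were detected, with Pdgfra at 0, and in heart Tconvs all 7 were. The part of fibroblasts in the Il1r1 level was not tested.

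Il1rap, the accessory chain shared by the IL-1 and IL-33 receptors, was scarce. It ran from 0 to 15.2 CPM and was at 0 in 7 of the 21 libraries. Spleen Tregs had 15.2, 8.72 and 9.02 CPM and heart Tconvs 12.5, 6.11 and 12, while heart Tregs had 3.26, 3.24 and 0. MLN Tregs had 14, 8.04 and 0, NDLN Tregs 0, 0.406 and 7.15, spleen Tconvs 0, 3.46 and 0.288, and NDLN Tconvs 0 in all 3. Heart Tregs, the group with the most Il1rl1, thus lay below spleen Tregs and heart Tconvs in Il1rap without overlap, but neither difference passed (log2 difference -2.34 ± 2.55, adjusted p 0.84, and -2.23 ± 2.54, adjusted p 0.99). The highest contrast was heart against NDLN Tconvs, at least 179-fold (adjusted p 0.13 with edgeR), which DESeq2 called (adjusted p 0.0011).

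Il1rn, the gene of the IL-1 receptor antagonist, was detected in 9 libraries, 7 of them Tregs. Heart Tregs had 17.8, 29.9 and 118 CPM. NDLN Tregs had 23.5, 0 and 1.2 and MLN Tregs 3.77, 15.5 and 0, while spleen Tregs had 0 in each library. Of the Tconvs, heart replicate 1 had 0.405 CPM from 9 counts, spleen replicate 1 had 1.65 from 38 counts, and the other 7 had 0. Heart Tregs exceeded heart Tconvs without overlap, with a ratio of means of 409 and a log2 difference of 8.62 ± 3.50 (adjusted p 0.6 with edgeR, 0.04 with DESeq2). Against spleen Tregs the heart Treg mean was at least 1396-fold higher (adjusted p 0.35 with edgeR, 0.0007 with DESeq2). That bound leaves out the spread of the heart Treg libraries. Without the filter on low counts the difference from spleen Tregs passed with edgeR too (adjusted p 0.0046). Against NDLN and MLN Tregs neither tool called it (DESeq2 adjusted p 0.66 and 0.84). On the mean over tissues the edgeR fit gave no usable value, because a group on either side of the comparison had no counts.

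The IL-18 receptor genes had another distribution. Il18r1, the IL-18-binding chain, was detected in all 21 libraries. Heart Tconvs had 202, 158 and 186 CPM, which lay above all 18 other libraries. Spleen Tconvs had 18.1, 55 and 22.1 and NDLN Tconvs 68.7, 12 and 23.1. Heart Tregs had 46.4, 68.7 and 0.531, spleen Tregs 9.93, 25 and 14.9, NDLN Tregs 2.52, 4.35 and 0.32, and MLN Tregs 2.05, 6.17 and 12.6. The third heart Treg library stood apart from the other 2, with 14 counts, and it was the library with the highest Il1rn and Il18rap of its group.

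Il18r1 had a lower mean in Tregs than in Tconvs in each of the 3 tissues, but no edgeR test passed. The log2 difference was -2.24 ± 1.13 in heart (adjusted p 0.6), -0.93 ± 1.09 in spleen (adjusted p 1) and -3.85 ± 1.21 in NDLN (adjusted p 0.29), with no overlap in heart and NDLN. On the mean over tissues it was -2.34 ± 0.66 (adjusted p 0.076 with edgeR, 0.0017 with DESeq2). Among Tregs, heart exceeded the lymphoid mean by 2.56 ± 0.80 (adjusted p 0.14), and without heart Treg replicate 3 this difference was 3.14 and passed (adjusted p 0.041). Heart Tconvs had 5.74 times the mean of spleen Tconvs (adjusted p 0.38) and 5.26 times that of NDLN Tconvs (adjusted p 0.26).

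Il18rap, the accessory chain of the IL-18 receptor, had its highest mean in heart for both kinds of cell. Heart Tconvs had 222, 79.7 and 81.6 CPM and heart Tregs 56.4, 49 and 80.2. Lymphoid Tregs were low, with 13.8, 6.61 and 2.96 in spleen, 2.24, 5.46 and 0.2 in NDLN and 4.1, 13.6 and 4.81 in MLN. Spleen Tconvs had 20.7, 79.7 and 11.9, and NDLN Tconvs 0, 4.38 and 0.173. The 3 heart Treg libraries lay above all 9 lymphoid Treg libraries, by 3.53 ± 0.94 on the log2 scale (adjusted p 0.084 with edgeR, 0.0031 with DESeq2). This difference passed with the replicate number as a block (log2 difference 4.16, adjusted p 0.034), although the labels do not pair samples by that number. It passed in 0 of the 12 edgeR fits that left out 1 library (adjusted p from 0.089 to 0.18). With the library set as a term it did not pass either.

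Among Tconvs the heart mean of Il18rap was 84 times that of NDLN, a log2 difference of 6.37 ± 1.60 that passed the test (adjusted p 0.034). The call was lost without NDLN Tconv replicate 1 (adjusted p 0.058) or 3 (0.11) and without heart Tconv replicate 1 (0.14) or 2 (0.073), and with the library set as a term (adjusted p 0.12). Natural killer and CD8 T cells also carry the IL-18 receptor. Their 6 markers, among them Cd8a, Nkg7 and Ncr1, summed to 1005 to 1782 CPM in heart Tconvs and 441 to 1557 in spleen Tconvs. The sums were 66.4 to 173 in NDLN Tconvs and 76.9 to 1370 in heart Tregs. Ncr1 was at 0 in all Tconv groups and was detected in heart Tregs, and Cd8a was at 0 in NDLN Tconvs and heart Tregs. The marker sum, like Il18rap, was on average highest in heart Tconvs and lowest in NDLN Tconvs, and its part in the result was not tested.

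**Figure D2:**
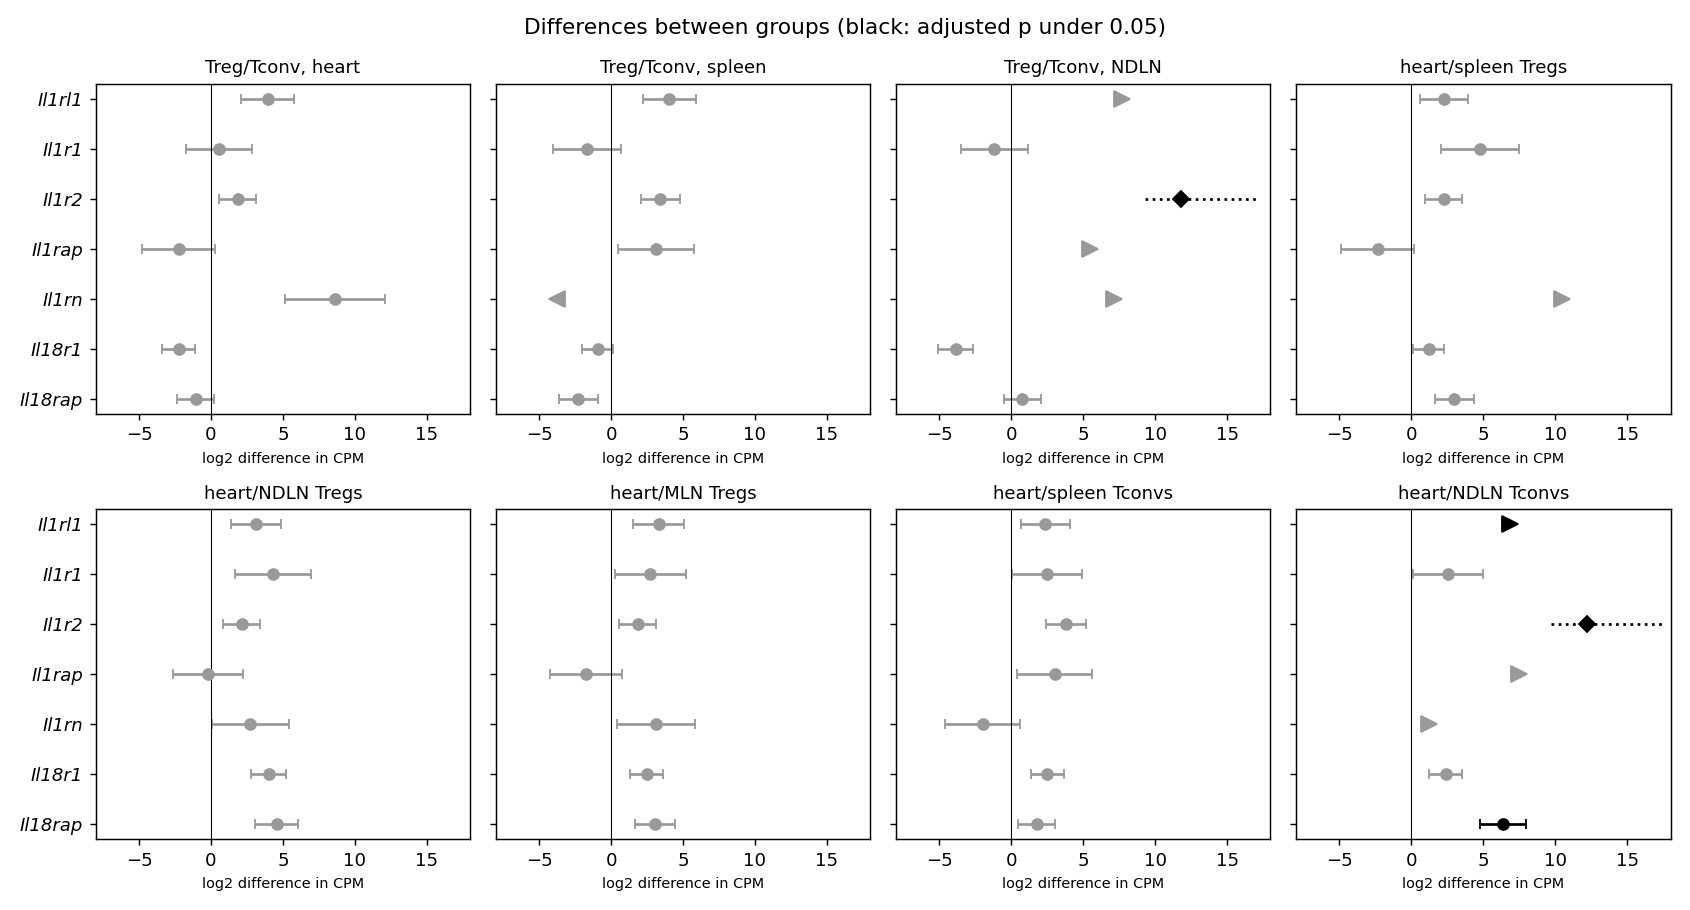
Differences between pairs of groups on the log2 scale for the 7 genes, the group named first minus the other. Circles are fitted log2 differences with SE, and diamonds ratios with 95% counting intervals (dotted). Triangles are lower bounds on the ratio of means against a group with no counts, and leave out the spread between libraries. Black marks calls at an adjusted p under 0.05. These are Il1r2 in NDLN and Il1rl1, Il1r2 and Il18rap in heart against NDLN Tconvs.

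Read by comparison, few of the 7 genes were called with edgeR, and few genes of the table were. In heart Tregs against heart Tconvs 0 of 7 were called, against 0.0667% of the 14996 genes, while 2 had an unadjusted p under 0.05. DESeq2 called 1 there, against 981 of 14142 genes. In spleen 0 were called, against 0.0600%, with 2 at an unadjusted p under 0.05. DESeq2 called 0, against 898 of 14142 genes. In NDLN 1 of 7 was called, against 0.300%, and DESeq2 called 5, against 1644 of 14142 genes. Il1r2 was the gene called by edgeR. The share of all genes at an unadjusted p under 0.05 is not given here, so those counts have no baseline. On the mean over the 3 tissues 2 of 7 were called, both higher in Tregs, against 1.81% of all genes. There Il1rl1, Il1r2 and Il1rap had higher fitted values in Tregs, Il1r1, Il18r1 and Il18rap lower ones, and Il1rn gave none.

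Heart Tregs against lymphoid Tregs gave 0 calls with edgeR throughout, and 6 of the 7 genes had higher means in heart in each comparison, Il1rap being the exception. Of all genes, 46.8%, 53.4%, 43.3% and 49.4% had higher fitted values in heart against spleen, NDLN, MLN and the mean of lymphoid Tregs. Against spleen Tregs the share of all genes called was 0.147%, against NDLN Tregs 0.533%, against MLN Tregs 0.0667% and against the mean of the 3 groups 0.967%. The numbers at an unadjusted p under 0.05 were 2, 2, 2 and 6, and DESeq2 called 1, 2, 0 and 2. Among all 14142 genes it tested, DESeq2 called 1352, 1834, 1112 and 1693. Against the mean of the 3 groups the median log2 difference of the 7 genes was 2.90, against -0.01 over all genes. These 4 comparisons share the heart libraries. MLN Tregs against NDLN Tregs gave 0 calls, against 0.00667% of all genes, with 0 at an unadjusted p under 0.05. DESeq2 called 0 there, against 941 of 14142 genes.

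Heart Tconvs were higher than NDLN Tconvs in all 7 genes by mean, where 58.2% of all genes had higher fitted values. Il1rn was higher on 9 counts over the heart group against 0. Of the 7 genes 3 were called, against 2.88% of all genes. At an unadjusted p under 0.05 there were 5, and DESeq2 called 4, against 2706 of 14142 genes. The 6 dendritic cell markers summed to 11.6 to 213 CPM in heart Tconvs, with Itgax at 0, and to 0 to 1.93 in NDLN Tconvs, and their part in these differences was not tested. The median of the 7 was 6.37 on the log2 scale, where the median of all genes stood at 0.48. Against spleen Tconvs 6 of 7 had higher means in heart, where 55.5% of all genes had higher fitted values. None of the 7 was called there, against 0.473% of all genes, with 2 at an unadjusted p under 0.05. DESeq2 called 1 in that comparison, against 1470 of 14142 genes. The median there was 2.49, against 0.27 for all genes. The test of whether the difference between Tregs and Tconvs departs in heart from that in spleen and NDLN called 0 of the 7, against 0.00667%. At an unadjusted p under 0.05 there were 2, and DESeq2 called 1, Il1r2, against 1108 of 14142 genes. The median of all genes there was -0.40. The comparisons share groups, so their counts are not independent.

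**Figure D3:**
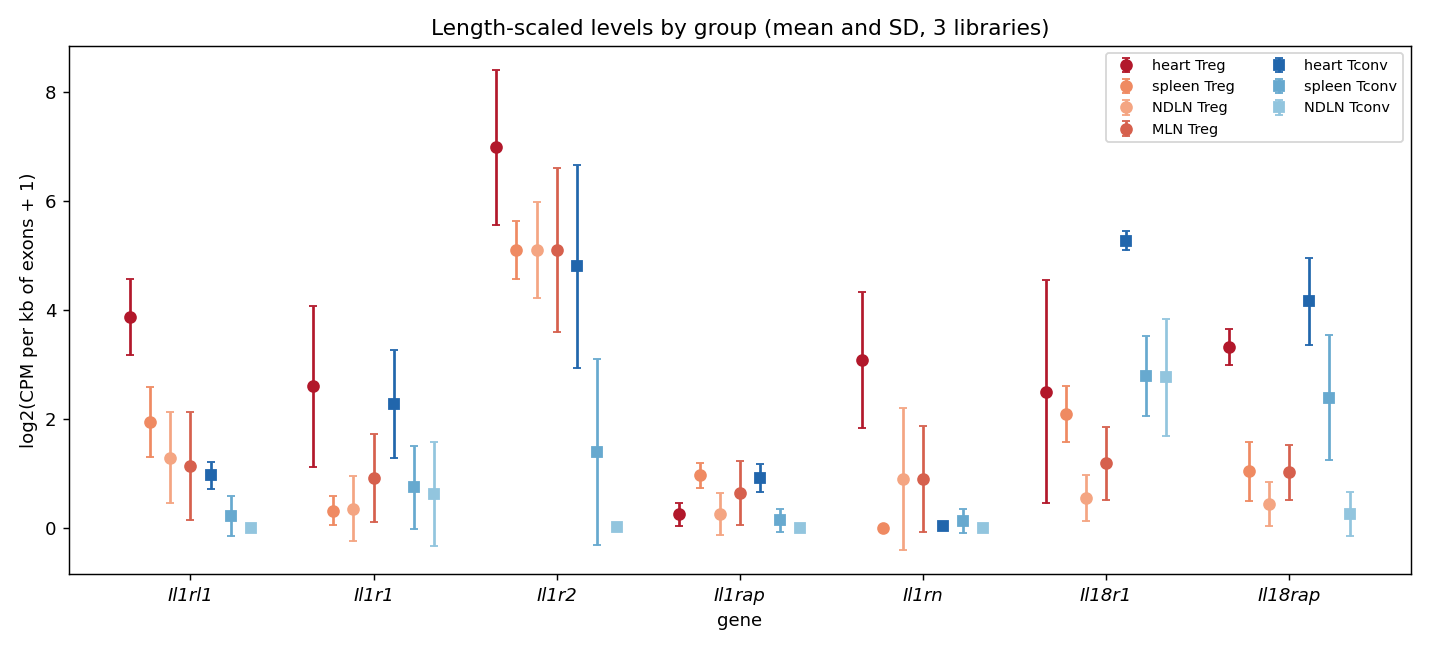
Length-scaled level of each gene as log2(CPM per kilobase of exons + 1), mean and SD of 3 libraries per group, Tregs as circles and Tconvs as squares. Il1r2 is the highest gene in all 4 Treg groups. In heart Tconvs Il18r1 lies above Il1r2 on this scale, and Il18rap below it. The heart Tconv libraries had 25.9, 103 and 6.85 CPM per kilobase of Il1r2 and 42, 32.8 and 38.6 of Il18r1.

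Dividing by exon length allows the genes to be compared with each other. In heart Tregs the order was Il1r2 at 166 ± 127 CPM per kilobase (SD, n = 3), Il1rl1 at 14.9 ± 8.09, Il1rn at 9.99 ± 9.9, Il18rap at 9.16 ± 2.41, Il18r1 at 8 ± 7.22, Il1r1 at 7 ± 5.75 and Il1rap at 0.191 ± 0.165. The genes from Il1rl1 to Il1r1 in this order overlapped in their libraries, Il1r2 lay above all of them in each library, and Il1rap overlapped only the lowest, that of Il18r1. In heart Tconvs Il1r2 at 45.3 ± 51.1 and Il18r1 at 37.8 ± 4.64 were followed by Il18rap at 18.9 ± 12, Il1r1 at 4.69 ± 4.16, Il1rl1 at 0.969 ± 0.328, Il1rap at 0.898 ± 0.312 and Il1rn at 0.0244 ± 0.0423. Il1r2 spread over the range of Il18r1 and Il18rap. In spleen Tconvs and NDLN Tconvs Il18r1 led, at 6.58 ± 4.21 and 7.19 ± 6.24.

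The decoy receptor gene exceeded the signalling receptor gene per kilobase in 17 of 21 libraries, among them all 12 Treg libraries and all 3 heart Tconv libraries. Il1r1 exceeded Il1r2 in 2 NDLN Tconv libraries, and in 2 further Tconv libraries both were at 0. Il18r1 exceeded Il1rl1 per kilobase in all 9 Tconv libraries, and in 6 of the 12 Treg libraries the order was the other way. These are counts of libraries and carry no test.

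**Figure D4:**
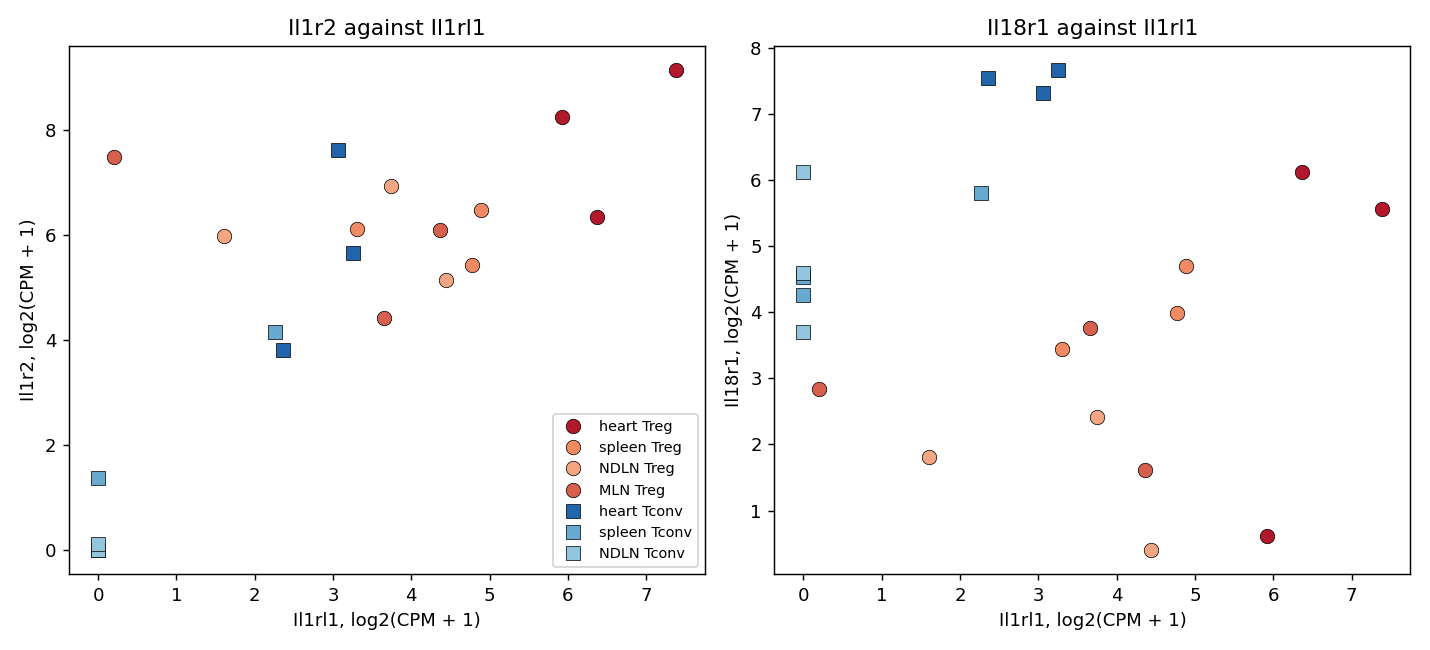
Each library placed by Il1rl1 (horizontal) and Il1r2 or Il18r1 (vertical), both as log2(CPM + 1), with Tregs as circles and Tconvs as squares. Il1r2 runs with Il1rl1 from the NDLN Tconvs at 0 to the heart Tregs, while Il18r1 separates the heart Tconvs from the heart Tregs.

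Over the 21 libraries, Il1rl1 and Il1r2 ran together (Pearson's r 0.83, Spearman's rho 0.71 of log2 CPM), and Il1rl1 and its neighbour Il18r1 did not (r -0.13, rho -0.15). The IL-18 receptor chains had an r of 0.38 and a rho of 0.44 with each other, and Il1r1 and Il1r2 an r of 0.38. Il1rl1 with its accessory chain Il1rap had an r of 0.51. These values describe libraries that share groups, kit and depth range, and no p is given. Among 8213 genes with a mean of at least 5 CPM, the patterns most like that of Il1rl1 by Spearman's rho were Foxp3 (0.91), Fam129a (0.91) and Itgav (0.89). For Il1r2 they were Gzmb (0.92), a cytotoxic granule protease, Sdf4 (0.86) and Fuca2 (0.85). For Il1r1 they were Stat4 (0.85), Vps16 (0.83) and Scyl3 (0.83), for Il1rap Cd38 (0.82), Car5b (0.82) and Acsl5 (0.81), and for Il1rn Cd2bp2 (0.74), Fam174a (0.71) and Slc41a1 (0.70). For Il18r1 they were Fam102a (0.78), Mgea5 (0.75) and Plcxd2 (0.75), and for Il18rap Ubb (0.86), Tnfrsf12a (0.85) and Tuba4a (0.84).

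The cytokine genes of these receptors were scarce in the sorted cells, apart from Il18, which was detected in 13 libraries. Of 10 ligand and soluble regulator genes 3 could be tested and 0 were called in any comparison. Il33 held 22 counts over 3 libraries, and Il1a held 0 over all. Il18, the IL-18 gene, was highest in spleen Tregs, at 10.5, 32.3 and 40.2 CPM. On the mean over tissues its log2 difference between Tregs and Tconvs was 5.69 ± 1.81, which did not pass (adjusted p 0.12 with edgeR). Il18bp, which encodes a soluble protein that binds IL-18, had 38.3, 27.5 and 18.6 CPM in NDLN Tconvs and 0 in all heart Treg and spleen Treg libraries. Il1b had at most 16.2 CPM, in a spleen Treg library.

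Of the 4 other receptors of the family 2 were tested. Il1rl2, the neighbour of Il1rl1 and the IL-36 receptor gene, was lower in Tregs on the mean over tissues (adjusted p 0.041, edgeR). In that comparison 1.81% of all genes were called. Il1rl2 had 12.2, 2.22 and 0.306 CPM in heart Tconvs and 4.59, 8.18 and 3.11 in spleen Tconvs. Heart Tregs had 0, 0 and 0.0759, and all spleen and NDLN Treg libraries had 0. NDLN Tconvs had 0, 0 and 7.08 CPM. MLN Tregs, which were not in that comparison, had 1.35, 4.2 and 0 CPM of Il1rl2. Of its neighbours on the chromosome, Il1rl1 was higher in Tregs, and Il1r1 had a fitted log2 difference of -0.76 ± 1.34 (adjusted p 1). Sigirr, an inhibitory receptor of the family, had means of 32.6 to 151 CPM in the Treg groups and passed no test.

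All 13 adaptor and kinase genes downstream of the receptors were tested, and only Tab3, which couples the receptor complex to the kinase TAK1, was called, in heart against NDLN Tconvs, where 2.88% of all genes were. Tab3 had 33.4, 16.1 and 14.9 CPM in heart Tconvs and 0.117, 0 and 0 in NDLN Tconvs (log2 difference 8.90 ± 2.08, adjusted p 0.023). Ube2n, a ubiquitin-conjugating enzyme of the pathway, was the most abundant, with a mean of 354 CPM, followed by Peli1 at 169. The median log2 difference of the 13 genes in heart against lymphoid Tregs was 0.14, against -0.01 for all genes. Of 5 genes that process the ligands, 4 were tested. Pycard, an adaptor of the inflammasome, was lower in heart Tconvs (46.2, 65.8 and 173 CPM) than in NDLN Tconvs (382, 479 and 344), a log2 difference of -2.08 ± 0.50 (adjusted p 0.027). Casp1, which cleaves IL-1 and IL-18, had a mean of 105 CPM and passed no test.

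Of 10 genes known with ST2 in tissue Tregs, all were tested and all 10 had higher values in Tregs on the mean over tissues, with a median log2 difference of 1.60, against 0.04 for all genes. Klrg1, an inhibitory receptor of effector cells, and Maf, a transcription factor, were called, 2 of 10 against 1.81% of all genes. Klrg1 had 337, 222 and 380 CPM in heart Tregs and 71.1, 13.5 and 14.6 in heart Tconvs, and its log2 difference over the tissues was 6.41 ± 1.06 (adjusted p 0.0029). Maf had 180, 126 and 265 CPM in heart Tregs and 120, 42.3 and 104 in heart Tconvs (adjusted p 0.0031 over the tissues). Klrg1 was also higher in heart than in NDLN Tconvs (log2 difference 9.41 ± 2.17, adjusted p 0.023). Rora, a transcription factor of tissue lymphocytes, had 350, 376 and 257 CPM in heart Tregs and 415, 372 and 200 in heart Tconvs, and against lymphoid Tregs its log2 difference was 2.57 ± 0.71 (adjusted p 0.097). Batf, a transcription factor of effector Tregs, had means of 221 ± 96.1 CPM in heart Tregs and 258 ± 82.5 in spleen Tregs. Among Tconvs, too, the list was higher in heart by median: all 10 genes against spleen (median 3.21, against 0.27 for all genes, with 0 called by edgeR and 4 at an unadjusted p under 0.05) and 9 of 10 against NDLN (median 2.84, against 0.48 for all genes, with Klrg1 called). In heart against lymphoid Tregs 0 of the 10 were called with edgeR, with 4 at an unadjusted p under 0.05.

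Among 7 type 1 genes, the programme in which the IL-18 receptor is best known, 1 was called in 1 comparison, heart against NDLN Tconvs, where 2.88% of all genes were. Cxcr3, a chemokine receptor, had 205, 152 and 234 CPM in heart Tconvs and 12.9, 18.3 and 0.777 in NDLN Tconvs (log2 difference 4.21 ± 1.04, adjusted p 0.03). Ifng, the interferon-gamma gene, had 732, 180 and 515 CPM in heart Tconvs and 57.3, 20.9 and 0.173 in NDLN Tconvs (log2 difference 4.18 ± 2.22, adjusted p 0.3). Stat4, a transcription factor activated by IL-12, had 270, 147 and 163 against 79.9, 46.4 and 116 CPM (adjusted p 0.15). IL-1 is known to promote the type 17 programme. Of 7 type 17 genes, 2 were called on the mean over tissues, against 1.81% of all genes. Il17f was lower and Ccr6 higher in Tregs there (adjusted p 0.027 each). Il17f had 235, 144 and 0.0437 CPM in heart Tconvs and 0 in all heart Treg libraries. Ccr6, a chemokine receptor, had 58.4, 30.9 and 53.8 CPM in heart Tregs and 0.045, 5.83 and 0.393 in heart Tconvs. Il22, the gene of highest mean in the list, had 38.3, 236 and 6.6 CPM in heart Tconvs and 68.2, 418 and 0 in NDLN Tconvs and passed no test. Il17a had a mean of 219 ± 102 CPM in heart Tconvs and 13.4 ± 20.1 in heart Tregs and passed no test.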

How the data were processed

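RNA was measured in 21 libraries, 7 groups of 3, grouped by their titles. The deposited table holds a raw read count for each gene and library, without normalization. HISAT2, HTSeq 0.6.0, CASAVA 1.8.2 and the mm10 build are named per the submitters' processing notes. Which annotation was used, how strand was set and how multiply mapped reads were handled is not given in the sources used here. All 21 columns matched a library and 0 were left unused. Replicates differed far beyond sampling noise, so each was counted once.

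Genes were kept by filterByExpr (minimum count 10, minimum total 15). A single fit over all libraries with edgeR 4.0.16 in R 4.3.3, TMM factors from 0.798 to 1.35 and the robust quasi-likelihood F-test gave 12 comparisons, adjusted by Benjamini-Hochberg over 14996 genes and called under 0.05. Levels are TMM-scaled CPM, and marker sums are CPM without TMM factors. SE were derived from the log2 difference and the F statistic. Bounds against groups without counts set those at 3 counts over the group. They take the mean of the other group and leave out the spread between its libraries. The fit was tested on simulated data. Alternatives were DESeq2 1.42.0, its size factors in edgeR, no filter, a replicate block, the library set as a term, only the 16 libraries with mitochondrial ribosomal RNA of at least 0.5%, and leaving out each library.

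The 7 genes and all lists were chosen with earlier results of these data known. From each list the text names the called genes and up to 3 of the highest mean, taken in order, and for each of the 7 genes the most alike by Spearman's rho of log2 CPM (prior count 2, predicted genes left out). Il33 and Il1a were named in addition, after their values were seen.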

Additional observations from a re-analysis of the deposited data

How the results depend on the processing

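The spread between replicates was wide, so that an unlisted difference can lie within it, and groups without counts give bounds only. A count of 0 in a library allows up to 3 counts. With the 16 libraries of higher mitochondrial ribosomal RNA, the heart Tconvs and MLN Tregs keep 1 library each, whose spread is taken from the remaining groups. The labels do not pair samples by replicate number. Deviations of same-numbered libraries from their group means correlated at -0.0614 to 0.184 (median -0.000235), with 3 of 63 pairs over 0.1. For libraries of different number the range was -0.228 to 0.13 (median -0.00083), with 2 of 126 pairs over 0.1. These values cannot exclude that some samples were paired. The cause of the changes below was not tested, except that the smaller fits hold fewer libraries.

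DESeq2 size factors in edgeR moved no number of called members. DESeq2 itself called 1 in heart Tregs against heart Tconvs (edgeR 0), 5 in NDLN Tregs against NDLN Tconvs (edgeR 1), 3 on the mean over tissues (edgeR 2, Il18r1 gained), 4 in heart against NDLN Tconvs (edgeR 3, Il1rap gained), 1, 2 and 2 in heart Tregs against spleen, NDLN and all lymphoid Tregs (edgeR 0 each), 1 in heart against spleen Tconvs and 1 in the test of the heart difference against that in lymphoid organs (edgeR 0 each). Without a filter on low counts, edgeR called 1 in spleen Tregs against spleen Tconvs, 4 in NDLN, 3 on the mean over tissues (Il18r1 gained), 1, 2 and 4 in heart Tregs against spleen, NDLN and all lymphoid Tregs, 1 in heart against spleen Tconvs and 1 in the test of the heart difference. The replicate block gave 1 call, Il18rap, in heart against all lymphoid Tregs, lost Il1rl1 in heart against NDLN Tconvs, which left 2, and changed no other call. The library set as a term left 1 call, Il1r2, in heart against NDLN Tconvs. The 16 libraries alone gave 0 calls in NDLN, on the mean over tissues and in heart against NDLN Tconvs. Leaving out 1 library gave 0 to 1 calls in NDLN, 0 to 1 in heart against all lymphoid Tregs and 1 to 2, against 3, in heart against NDLN Tconvs.

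Among all genes, DESeq2 called 898 to 2706 per comparison and no filter 105 to 785, against 1 to 432. The replicate block moved 80 to 146 calls in heart against NDLN Tregs, 10 to 4 against MLN Tregs, 1 to 4 in MLN against NDLN Tregs and 71 to 287 in heart against spleen Tconvs. The library set as a term moved 71 to 12 there, 432 to 80 in heart against NDLN Tconvs and 1 to 3 in MLN against NDLN Tregs. The 16 libraries alone gave 0 to 77.

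Reversed directions were found only for differences that passed no test. In MLN against NDLN Tregs, Il1rl1 was 0.05 with the replicate block and 0.02 in the 16 libraries (against -0.17), Il1r2 was -1.75 with the library set and -1.79 in the 16 libraries (against 0.29), Il1rap was lower in the 16 libraries (against 1.54) and Il1rn was 2.40 with the replicate block (against -0.35). The only MLN Treg library among the 16 had no Il1rap counts, so the fitted values there (-8.77 in MLN against NDLN Tregs, 8.16 in heart against MLN Tregs and 1.60 against all lymphoid Tregs) give a direction and no size. For the heart difference against that in lymphoid organs, Il18r1 was -0.06 with the replicate block and -0.03 in the 16 libraries, and Il18rap 0.42 in the 16 libraries. Leaving out 1 library gave these ranges across 0: Il1r1 from -0.11 to 1.60 in heart, from -7.57 to 2.70 in NDLN and from -2.89 to 0.53 on the mean over tissues (Tregs against Tconvs), Il18rap from -0.34 to 4.98 in NDLN and from -1.22 to 0.56 on the mean, Il1rap from -0.80 to 3.39 in heart against NDLN Tregs, Il1rl1 from -1.01 to 0.53, Il1r2 from -0.72 to 0.87 and Il1rn from -2.12 to 3.40 in MLN against NDLN Tregs, Il1rn from -6.64 to 4.64 in heart against spleen Tconvs (each end fitted against a group without counts, so a direction and no size), and Il18r1 from -0.59 to 0.73 and Il18rap from -2.40 to 0.38 for the heart difference.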
